A study of Homo sapiens with 21 samples.

Results

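FaDu, an established cell line from a hypopharyngeal squamous cell carcinoma, was compared after knockdown of IGF2BP3 by the hairpin sh3-1 with cells that carried the control hairpin shCtr, by sequencing of circular RNA (circRNA). The circRNAs described are all those that the authors' tables list for sh3-1 against shCtr, with the higher and the lower table stacked. They number 7021 of the 8714 circRNAs in the series. All have a named host gene except 12, and the named hosts number 3354. The sh3-1 group has 3 libraries (A, B and C) labelled as IGF2BP3 knockdown. The shCtr group has 3 libraries (A, B and C) labelled as wild type, with no treatment given. The series also holds 3 libraries of a second hairpin, sh3-2, and 12 libraries of m6A immunoprecipitation and input from sh3-2 and shCtr, which had no sh3-1 sample. The labels do not say how the hairpins were delivered, whether a group is 1 clone, or whether A, B and C are separate cultures. The p-values therefore cover no more than library-to-library spread, which may be technical. Ribosomal RNA was depleted from total RNA, and no removal of linear RNA is named, so junction reads are the only reads here that mark circles.

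A circRNA forms when the spliceosome joins the end of an exon to the start of the same or an earlier exon of one transcript, a step called back-splicing. The ring has no free ends and resists exonucleases, and many circles last longer than the linear RNA of their host gene. IGF2BP3 is an RNA-binding protein that reads m6A, a methyl mark on adenosine, and stabilises or localises bound RNAs. It is an oncofetal protein, low in most adult tissue and raised in many carcinomas. Reads over the back-splice junction are counted for each circle, and its span is the distance on the genome from its start to its end, introns included. Exonic circles begin and end at annotated exon borders, intronic circles lie in an intron, and the authors call sense overlapping those that overlap a gene on its own strand without matching its exon borders.

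The 6 libraries held 33473 junction reads, with 5023, 5846 and 5732 in sh3-1 A, B and C, against 5502, 5552 and 5818 in shCtr A, B and C. Counts were scaled to these totals. Where a library has no read of a circle, its share may still reach 0.0513% to 0.0597% of the junction reads (3 counts of the total, counting error only). Circles were sparse: 4659 (66.4%) had reads in 1 library only, 121 had reads in all 6 and held 18.5% of the reads, and 509 had at least 10 reads. Reads in both groups were found for 1467 circles, in sh3-1 alone for 2422 and in shCtr alone for 3132. Libraries sh3-1 A and B stand apart, since 409 circles were found in these 2 and in no other of the 6, against 139 for shCtr A and B, the next pair. These 409 circles hold 12.6% of the reads of sh3-1 A and 22.1% of those of sh3-1 B. Of all circles found in sh3-1 A or B, 35.1% were found in both, against 11.2% to 17.7% for the other pairs of libraries. Whether sh3-1 A and B share a source was not tested, and the main tests, on counts and on shares, all treat them as separate libraries. Their counts were not copies of each other: over circles with at least 10 reads in the pair, the chi-square per degree of freedom was 3.38, within the 2.5 to 4.26 of all pairs. Leaving the 409 circles out takes reads from sh3-1 A and B alone, by the way they were found, and raises the shares of all other circles there. Values without them are therefore given only as a description, and not for every result that they move. Of 20 squamous markers only EGFR and TRIM29 had circle reads, 7 in all, and the keratin genes of the list had none. FBLN1, a fibroblast marker, had 4, 1 and 4 reads in sh3-1 against 0, 1 and 0 in shCtr, the other 9 fibroblast markers had none, and no marker of immune (10 genes) or endothelial cells (5 genes) had a read. Circles from a bulk culture cannot tell fewer cells of a kind from fewer circles per cell.

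Sense overlapping circles took a smaller part of the junction reads in sh3-1. Their share was 11.2%, 10.5% and 11.1% in sh3-1 A, B and C, against 13.1%, 12.7% and 13.2% in shCtr A, B and C. The groups did not overlap (10.9 ± 0.365% against 13.0 ± 0.237%, SD, n = 3 each; exact two-sided permutation p = 0.1, the smallest that 3 against 3 libraries allow). Over circles with at least 3 reads the difference was -1.18 percentage points, in place of -2.05 over all circles (exact permutation p = 0.1 for both). Most of the gap lay in the long circles of this class. Those that span 20 to 50 kb held 2.27%, 2.52% and 2.69% of reads in sh3-1 against 3.45%, 3.37% and 3.18% in shCtr. Those of 50 kb or more held 1.35%, 0.941% and 1.08% in sh3-1 against 1.65%, 2.07% and 1.94% in shCtr. Under 20 kb the groups overlapped in each of the 3 span classes. Splitting by class and span together was chosen after the totals were seen, and is given as values with no test.

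Each long sense overlapping circle had few reads. The circle of this class and of 50 kb or more with the most reads comes from FIRRE, a noncoding RNA of nuclear organisation (chrX:130877124-130928494), with 5, 0 and 3 reads in sh3-1 against 6, 9 and 1 in shCtr. The groups overlap in raw reads. The most read circle of the whole class comes from ZNF124, a zinc finger gene, and the next place is a tie between ZNF124 and NIPBL. The ZNF124 circle chr1:247319708-247323115 had 10, 5 and 1 reads in sh3-1 against 12, 5 and 9 in shCtr. The circle that ends at the same position, chr1:247318868-247323115, had 5, 19 and 7 reads in sh3-1 against 2, 3 and 3 in shCtr, and its scaled groups did not overlap. The tied NIPBL circle, chr5:36982267-36986403, had 0, 9 and 5 reads in sh3-1 against 7, 2 and 16 in shCtr, and overlapped.

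Circles shorter than 1 kb took a larger part in sh3-1, with 11.8%, 11.2% and 10.8% of reads in sh3-1 A, B and C against 10.3%, 10.4% and 10.2% in shCtr. The groups did not overlap (exact permutation p = 0.1). This gap lay in intronic circles. Intronic circles under 1 kb held 4.54%, 4.16% and 3.42% of reads in sh3-1 against 3.162%, 2.56% and 3.09% in shCtr, while exonic ones of that size held 5.77 ± 0.67% in sh3-1 and 5.83 ± 0.676% in shCtr. It was smaller over circles with at least 3 reads, at 0.59 in place of 0.953 percentage points, and the groups then overlapped (exact permutation p = 0.2). Without the circles that only sh3-1 A and B share, all circles under 1 kb differed by 0.433 percentage points (exact p = 0.4) and intronic ones overlapped, at 3.49 ± 0.606% against 2.94 ± 0.331%. Of the 409, 64 (15.7%) are intronic, against 10.9% of all circles. The intronic class as a whole held 9.56%, 8.66% and 6.94% in sh3-1 against 7.18%, 6.47% and 6.82% in shCtr and overlapped (exact p = 0.2).

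**Figure D1:**
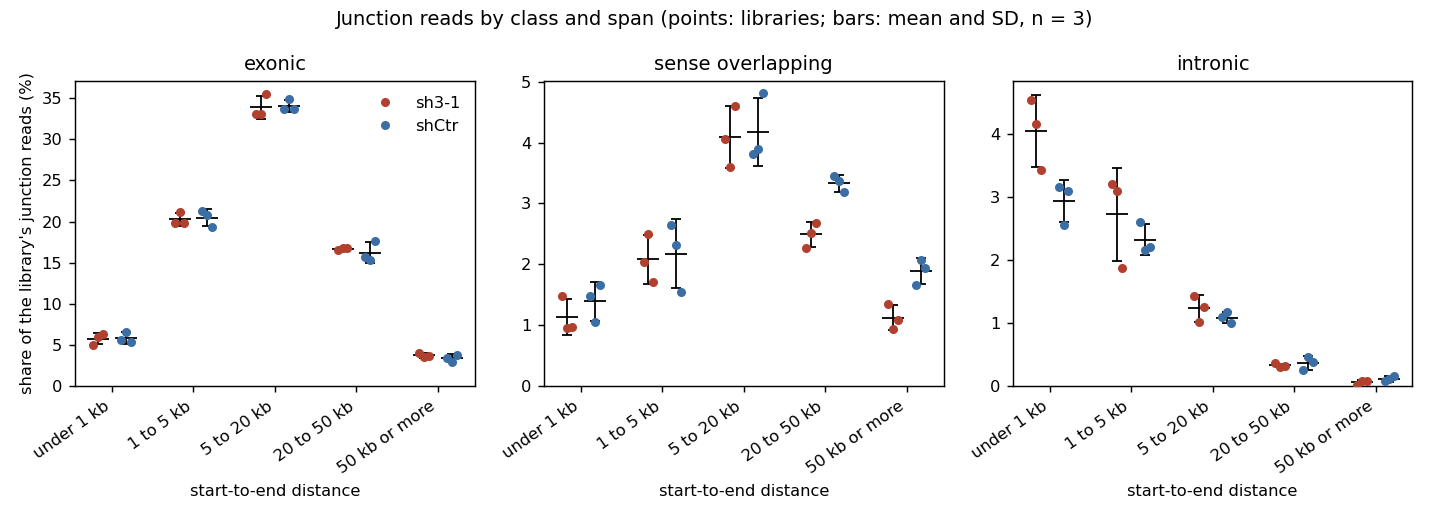
Share of each library's junction reads (%) by class of circle and start-to-end distance, with 1 point per library, sh3-1 in red and shCtr in blue, and bars for the mean and SD (n = 3). Sense overlapping circles of 20 to 50 kb and of 50 kb or more are lower in every sh3-1 library, intronic circles under 1 kb are higher in every sh3-1 library, and exonic circles overlap in every span class.

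Exonic circles, 5078 of the 7021, held 80.3 ± 1.76% of reads in sh3-1 and 80.0 ± 0.513% in shCtr (exact p = 0.8). Their groups overlapped in all 5 span classes. Antisense circles held 0.538%, 0.24% and 0.0698% of reads in sh3-1 against 0.127%, 0.18% and 0.12% in shCtr (exact p = 0.4), and intergenic ones 0.279%, 0.0684% and 0% against 0.0727%, 0.108% and 0.12% (exact p = 1). Part of the high antisense value of sh3-1 A is a CAMKMT junction with 11 reads in that library and none in the others. Antisense junctions at DDX6 and ARHGAP36 had 4 reads each, also in sh3-1 A alone. The median span over reads was 8279, 8062 and 8476 bases in sh3-1 and 8143, 8201 and 9444 in shCtr (exact p = 0.7). Circles with an ID in circBase, a catalogue of circRNAs, held 72.6 ± 0.994% of reads in sh3-1 and 72.6 ± 1.76% in shCtr (exact p = 0.8). Circles with a listed m6A site, measured by the authors in sh3-2 and shCtr only, held 32.7%, 32.1% and 31.6% of reads in sh3-1 against 31.0%, 30.6% and 32.2% in shCtr (exact p = 0.3). Detection was lower in the mean and overlapped: at the read number of the smallest library, 1724, 1641 and 1874 circles were expected in sh3-1 against 2000, 2019 and 1735 in shCtr (exact p = 0.2). With sh3-1 A and B summed as 1 library the direction turned, to 75.3 more circles in sh3-1 (exact p = 0.7). A sum of 2 libraries holds the circles of both, which raises the number detected by construction, so this turn cannot be read as a result.

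The 8 circles with the most reads overlapped between the groups. SPECC1, which encodes a cytospin, has the top circle at chr17:20107646-20109225 (hsa_circ_0000745), with 81, 90 and 109 reads in sh3-1 against 101, 85 and 91 in shCtr. Its log2 fold change was 0.04 (SE 0.15), the smallest error of any circle tested. The circle of PLOD2, a collagen lysyl hydroxylase (chr3:145838899-145842016, hsa_circ_0122319), had 55, 60 and 48 reads in sh3-1 against 57, 42 and 34 in shCtr. That of GUSBP1, a pseudogene of beta-glucuronidase (chr5:21491430-21497305), had 24, 55 and 17 in sh3-1 against 48, 58 and 31 in shCtr. Reads of GUSBP1 may be shared with near-identical copies. Scaled reads ran together in all 3 circles.

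The 5 circles that follow in read number came from a range of genes. RARS, the arginyl-tRNA synthetase (chr5:167915607-167921655), had 39, 28 and 32 reads in sh3-1 against 35, 31 and 13 in shCtr. HIPK3, a protein kinase whose circle is known from many cell types (chr11:33307959-33309057), had 17, 21 and 29 in sh3-1 against 24, 14 and 33 in shCtr. FAM13B (chr5:137320946-137324004) had 4, 24 and 31 in sh3-1 against 17, 26 and 12 in shCtr, a wide spread within both groups. FIRRE (chrX:130883334-130928494) had 7, 26 and 29 in sh3-1 against 17, 16 and 15 in shCtr. MYH9, the heavy chain of nonmuscle myosin (chr22:36716843-36723533), had 21, 26 and 17 in sh3-1 against 16, 22 and 4 in shCtr, and its circle carries no circBase ID.

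Of the 7021 circles, 33 passed edgeR's default read filter and were tested one by one, and they hold 10.9% of the reads. With edgeR's quasi-likelihood test on counts scaled to junction-read totals, 0 of 33 (0%) passed a false discovery rate of 0.05. An unadjusted p under 0.05 was found for 1 by edgeR and 1 by DESeq2, which called 0. Log2 fold changes were above 0 for 17 and below 0 for 16, with a median of 0.03 and a median SE of 0.56. Every sh3-1 library was above every shCtr library for 0 of them, and below for 1 (3.03%).

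SETD3, the methyltransferase of an actin histidine, had the smallest p, with 14, 12 and 25 reads in sh3-1 against 4, 12 and 5 in shCtr at chr14:99924616-99932150 (hsa_circ_0000567). Its log2 fold change was 1.28 (SE 0.54; edgeR adjusted p = 0.592). The lowest sh3-1 library and the highest shCtr library both had 12 reads. Without shCtr B the log2 fold change was 1.92. The ESYT2 circle chr7:158552177-158557544, from a protein that tethers the endoplasmic reticulum to the plasma membrane, had 16, 22 and 14 in sh3-1 against 15, 10 and 4 in shCtr. Both tested circles of ARHGAP5, a GTPase-activating protein, start at position 32559708 of chromosome 14. The longer, which ends at 32586493, had 20, 11 and 23 reads in sh3-1 against 7, 11 and 13 in shCtr. The shorter, which ends at 32563592, had 11, 10 and 16 in sh3-1 against 11, 7 and 6 in shCtr. CSNK1G3, a casein kinase (chr5:122881111-122893258), had 16, 11 and 16 in sh3-1 against 12, 12 and 4 in shCtr. All of these overlap between the groups.

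Among circles with a log2 fold change below 0, XPO1 was the only tested circle whose scaled groups did not overlap. XPO1 is the main exporter of proteins from the nucleus, and its circle chr2:61749746-61761038 (hsa_circ_0001017) had 7, 8 and 11 reads in sh3-1 against 12, 13 and 21 in shCtr (log2 fold change -0.79, SE 0.53; edgeR adjusted p = 0.808). Summed over its 15 circles the XPO1 gene overlapped, with 23, 24 and 24 reads in sh3-1 against 21, 21 and 38 in shCtr. PRKD3, protein kinase D3 (chr2:37543380-37544322), had 11, 6 and 12 in sh3-1 against 8, 28 and 16 in shCtr. MIB1, a ubiquitin ligase for Notch ligands (chr18:19345733-19359646), had 3, 6 and 12 in sh3-1 against 17, 6 and 18 in shCtr. LINC01004, a noncoding host and the only intronic circle tested (chr7:104645765-104649656), had 14, 8 and 5 in sh3-1 against 19, 11 and 15 in shCtr. SEMA3C, a secreted semaphorin (chr7:80418622-80440017), had 9, 14 and 8 in sh3-1 against 8, 16 and 18 in shCtr.

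Some circles were found in every library of one group and in none of the other. These were 43 circles (0.612% of 7021) with reads in all 3 sh3-1 libraries and in no shCtr library, and 41 (0.584%) the other way round, about even in number. Each had 4 to 20 reads in the first set and 4 to 12 in the second. Exonic circles make up 88.4% of the first set and 87.8% of the second, against 72.3% of all circles, and a circBase ID is carried by 90.7% and 90.2%, against 59.2%. A circle must have at least 3 reads to enter either set, so the sets lean to better covered circles by construction. Sharing of circles also differed within the groups, at 35.1% for sh3-1 A and B and 13.1% and 13.3% for each with C. The shCtr pairs shared 14.6% to 17.7%. The numbers 43 and 41 make no allowance for this.

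The circle of the first set with the most reads comes from DCUN1D4, a gene of cullin neddylation (chr4:52729603-52744020, hsa_circ_0001410). It had 6, 11 and 3 reads in sh3-1 A, B and C and 0 in shCtr. With a floor of 3 counts over the shCtr group in place of 0, its share was 6.78-fold higher in sh3-1. This fold follows from the choice of circles with 0 reads in shCtr, and leaves out the spread between libraries. Other circles of the same gene were read in shCtr: the 5 that share its start or its end had 0, 2 and 4 reads in sh3-1 against 3, 3 and 9 in shCtr. An intronic circle of SSH2, a cofilin phosphatase (chr17:28180406-28181694), had 5, 8 and 2 reads in sh3-1 and 0 in shCtr, and none of the 6 circles of SSH2 had a read in shCtr. ZNF131, a zinc finger protein (chr5:43122141-43139411), had 3, 7 and 4 in sh3-1, and over its 5 circles the host had 11, 12 and 6 in sh3-1 against 3, 1 and 0 in shCtr. PIAS2, a SUMO ligase (chr18:44470543-44483598), had 3, 4 and 6 in sh3-1. FBXO9, an F-box protein (chr6:52935855-52941341), had 7, 4 and 1, and an intronic circle of GTF2IRD1, a transcription factor gene (chr7:73960801-73963324), had 2, 9 and 1. On the same floor, and with the same limits, the shares of these 5 were 4.07-fold to 5.08-fold higher in sh3-1.

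In the other direction the HECTD2 circle chr10:93185038-93221941 (hsa_circ_0007168), from a HECT-domain ubiquitin ligase named in the title of the series, had 0 reads in sh3-1 against 3, 2 and 7 in shCtr. It is the only circle listed for HECTD2 here. With a floor of 3 counts over the sh3-1 group in place of 0, its share was 3.94-fold lower in sh3-1. This fold too follows from the choice of circles, and leaves out the spread between libraries. RNF13, a RING ubiquitin ligase, has 9 circles, and chr3:149613260-149639014 had 0 reads in sh3-1 against 5, 3 and 4 in shCtr. A longer RNF13 circle with the same end, chr3:149563798-149639014, had 5, 34 and 10 reads in sh3-1 against 17, 9 and 15 in shCtr. Over all 9 circles the host had 15, 46 and 25 against 31, 23 and 22. BACE2, an aspartyl protease (chr21:42598193-42629253), had 0 in sh3-1 against 2, 1 and 8 in shCtr, and TMEM138, a transmembrane protein (chr11:61133517-61135470), 0 against 4, 2 and 4. PPWD1, a spliceosome-associated isomerase (chr5:64863340-64868113), had 0 against 2, 3 and 5.

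GMPS, which encodes GMP synthetase, appears in both sets. Its circle chr3:155628481-155643155 had 0 reads in sh3-1 against 5, 2 and 4 in shCtr, and its circle chr3:155611307-155629068 had 1, 7 and 2 reads in sh3-1 against 0 in shCtr. Over its 11 circles the host had 7, 16 and 4 reads in sh3-1 against 6, 8 and 12 in shCtr. RPS6KC1, a kinase-like gene, is the only other host in both sets, with 3, 3 and 1 reads in sh3-1 against 0 in shCtr for chr1:213290659-213303232, and 0 against 1, 3 and 2 for chr1:213251038-213303232, which has the same end.

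**Figure D2:**
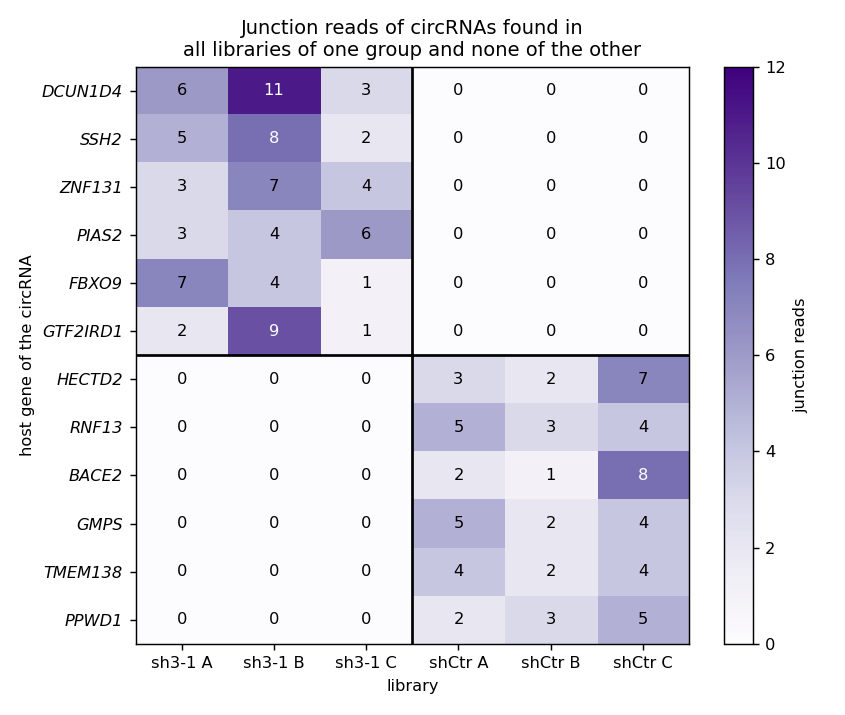
Junction reads per library (columns) of the 6 circRNAs with the most reads among those found in all sh3-1 and no shCtr libraries (upper rows, DCUN1D4 to GTF2IRD1) and of the 6 found in all shCtr and no sh3-1 libraries (lower rows, HECTD2 to PPWD1). Counts run from 1 to 11 in the group that has the circle, and are 0 in the other by the choice of these circles.

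Summing the circles of each host gave 82 host genes that passed edgeR's default read filter, which hold 23.8% of the reads. By edgeR's quasi-likelihood test 0 of 82 (0%) passed a false discovery rate of 0.05, with 6 at an unadjusted p under 0.05, of which 3 were higher and 3 lower in sh3-1. DESeq2 called 0 and had 4 at an unadjusted p under 0.05. The smallest edgeR adjusted p was 0.594 under this filter, and 0.0867 over the 895 hosts with at least 10 reads. Log2 fold changes were above 0 for 39 hosts and below 0 for 43, with a median of -0.01. Scaled reads of every sh3-1 library were above every shCtr library for 7 hosts (8.54%) and below for 6 (7.32%), among them ZFAND6 and ANKIB1 above and ERBB2IP below, which are not described further.

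CEP192, a scaffold of the centrosome that recruits mitotic kinases, had 23, 35 and 24 reads in sh3-1 against 14, 14 and 15 in shCtr over 12 circles. The groups did not overlap, at 4.92 ± 0.947 reads per 1000 junction reads in sh3-1 and 2.55 ± 0.0285 in shCtr (SD, n = 3 each), and the log2 fold change was 0.94 (SE 0.40; edgeR adjusted p = 0.594). Its most read circle did not carry this difference: chr18:12999420-13030607 had 3, 11 and 2 reads in sh3-1 against 12, 3 and 8 in shCtr. A circle with the same start, chr18:12999420-13042333, had 2, 9 and 3 in sh3-1 against 1, 3 and 0 in shCtr. ATXN10, the ataxin-10 gene, had 27, 20 and 21 reads in sh3-1 against 15, 13 and 6 in shCtr over 10 circles, again with no overlap (log2 fold change 1.02, SE 0.49; edgeR adjusted p = 0.594). Here too the top circle, chr22:46125305-46136418, was alike, with 10, 6 and 4 against 11, 5 and 2. The longer circles with the same end held more reads in sh3-1: chr22:46096162-46136418 had 8, 3 and 1 against 0, 2 and 0, and chr22:46085592-46136418 had 8, 0 and 4 against 1, 0 and 0.

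CSPP1, a centrosome and spindle pole protein, had 13, 13 and 15 reads in sh3-1 against 4, 4 and 11 in shCtr over 13 circles (log2 fold change 1.13, SE 0.69; edgeR adjusted p = 0.707). Of its 11 reads in shCtr C, 8 came from a single circle, chr8:68005778-68007967, which had 0, 0 and 1 reads in sh3-1. PDE3A, a cyclic nucleotide phosphodiesterase, had 11, 23 and 18 in sh3-1 against 11, 12 and 7 in shCtr over 15 circles. HIBADH, a mitochondrial enzyme of valine breakdown, had 17, 24 and 15 in sh3-1 against 8, 14 and 11 in shCtr. The scaled groups of CSPP1, PDE3A and HIBADH did not overlap. For PDE3A the margin was narrow, at 2.19 reads per 1000 in sh3-1 A against 2.16 in shCtr B, and its raw reads overlapped. Without the 409 circles the log2 fold change was 0.73 for CSPP1, in place of 1.13, and 0.47 for PDE3A, in place of 0.79. Without shCtr C that of CSPP1 was 1.74. ESYT2 had 20, 33 and 27 in sh3-1 against 22, 12 and 14 in shCtr, and ARHGAP5 had 31, 21 and 41 against 21, 18 and 20, and both overlapped. SETD3 has a single circle, given above.

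The hosts with the lowest fold changes, LIFR and SFMBT2, had 1 and 0 reads in sh3-1 B. LIFR, the receptor subunit for leukaemia inhibitory factor, had 7, 1 and 7 reads in sh3-1 against 27, 12 and 11 in shCtr over 5 circles (log2 fold change -1.68, SE 0.71; edgeR adjusted p = 0.594). Of these, chr5:38523521-38530768 (hsa_circ_0072309) held 70.8% of the host's reads, with 2, 1 and 7 in sh3-1 against 20, 8 and 8 in shCtr. SFMBT2, a Polycomb-group gene, had 7, 0 and 8 in sh3-1 against 14, 16 and 19 in shCtr over 8 circles (log2 fold change -1.64, SE 0.74; edgeR adjusted p = 0.594). Its leading circle, chr10:7318854-7327916, had 2, 0 and 3 against 6, 10 and 13. The scaled groups of LIFR and SFMBT2 did not overlap. Without sh3-1 B the log2 fold change was -1.18 for LIFR and -1.04 for SFMBT2, and without shCtr A that of LIFR was -1.12.

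FANCL, the ubiquitin ligase of the Fanconi anaemia complex, had 10, 1 and 5 reads in sh3-1 against 17, 9 and 17 in shCtr and overlapped. Its circle chr2:58449077-58459247 had 1, 0 and 3 in sh3-1 against 11, 5 and 13 in shCtr, while chr2:58386785-58393009 had 5, 1 and 0 against 1, 1 and 0. FAM208A, a subunit of the HUSH silencing complex, had 4, 8 and 2 in sh3-1 against 10, 13 and 11 in shCtr. CPS1, the carbamoyl phosphate synthetase of the urea cycle, had 13, 12 and 13 in sh3-1 against 19, 22 and 23 in shCtr over 17 circles (log2 fold change -0.72, SE 0.48; edgeR adjusted p = 0.707), with a small spread in both groups, at 2.30 ± 0.269 against 3.79 ± 0.291 reads per 1000. Neither FAM208A nor CPS1 overlapped between groups. PRKD3, with 11, 6 and 16 against 14, 28 and 21, and the ER chaperone gene CANX, with 4, 3 and 11 against 12, 18 and 9, did overlap. With 1 library left out in turn, the log2 fold change of FANCL lay between -2.245 and -0.84 and that of CANX between -1.80 and -0.745.

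**Figure D3:**
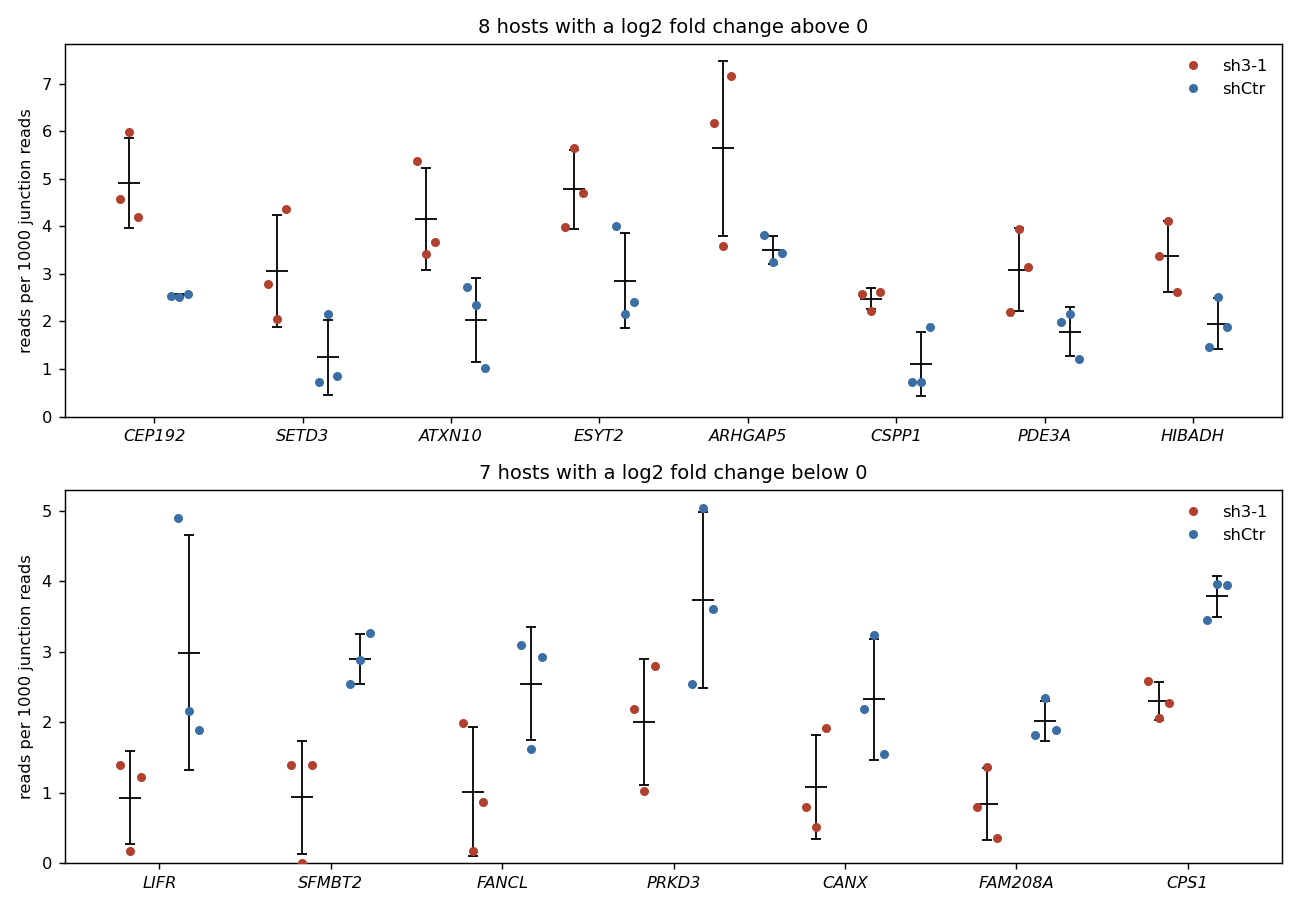
Junction reads per 1000 junction reads of the library for 8 hosts with a log2 fold change above 0 (upper) and 7 below 0 (lower), all described in the text, with 1 point per library, sh3-1 in red left of shCtr in blue, and bars for the mean and SD (n = 3). CEP192 sits between 4.19 and 5.99 in sh3-1 and between 2.52 and 2.58 in shCtr, and SFMBT2 is at 0 in 1 sh3-1 library.

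**Figure D4:**
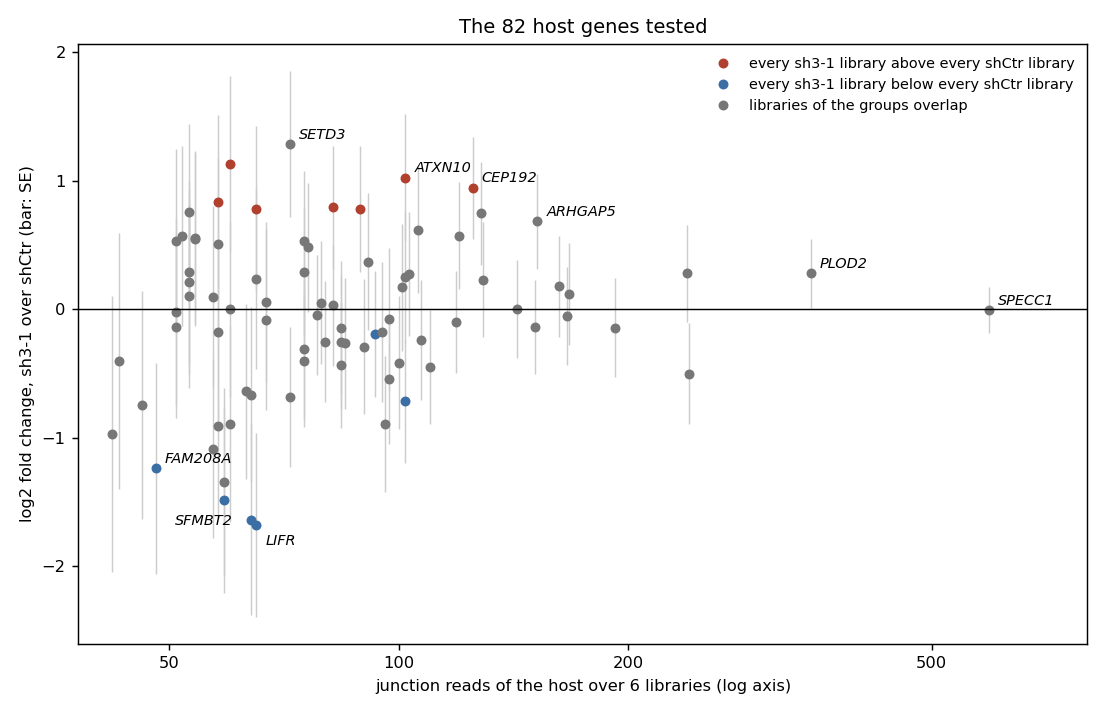
Log2 fold change of sh3-1 over shCtr (bar: SE) against junction reads over the 6 libraries (log axis) for the 82 hosts tested. SPECC1, with the most reads, lies at -0.01, hosts whose groups do not overlap are red above and blue below 0, and none passes a false discovery rate of 0.05.

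Hosts with the most distinct circles were spread on both sides of 0. BIRC6, an inhibitor of apoptosis with ubiquitin-conjugating activity, has 19 circles and had 6, 5 and 24 reads in sh3-1 against 13, 3 and 14 in shCtr. UBAP2, a ubiquitin-associated protein with 17 circles, had 25, 10 and 13 against 18, 15 and 26. ADARB1, an RNA-editing enzyme with 16, had 13, 4 and 7 against 11, 15 and 13, and NUP98, a nuclear pore protein with 15, had 6, 14 and 14 against 6, 13 and 14. CPS1 has 17, and PDE3A and XPO1 tie with NUP98 at 15. Of these 7 hosts, in scaled reads, CPS1 was lower in every sh3-1 library, PDE3A was higher in every sh3-1 library by a narrow margin, and the others overlapped. By number of circles, the 1876 hosts with a single circle held 22.2 ± 1.83% of reads in sh3-1 and 21.3 ± 1.52% in shCtr, and the 40 hosts with 10 or more held 8.34 ± 0.998% and 8.47 ± 1.00%. Reads in sh3-1 alone were found for 829 hosts and in shCtr alone for 1066.

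Host genes were also grouped into lists of shared function, and most members did not pass the default read filter. At most 15 members of a list were tested, and none of the m6A genes or deubiquitinases. No tested member passed. Over all 3354 hosts, 1598 (47.6%) had a higher mean share in sh3-1. Regulators of small GTPases, which switch these signalling proteins on or off, had reads for 48 of 76 listed genes, with a higher share in 27 and a lower share in 21. Their summed level was 24.7, 26.9 and 26.0 reads per 1000 in sh3-1 A, B and C, against 21.3, 19.5 and 21.0 in shCtr, with no overlap. ARHGAP5 made up part of this, and without it the difference was 3.20 in place of 5.28 reads per 1000. No other list had groups without overlap. Lists were not tested, and with 3 against 3 libraries a full separation reaches no exact permutation p below 0.1. Other members with many reads were ARHGAP12, with 6, 9 and 20 against 6, 10 and 1, and DENND4A, with 6, 11 and 5 against 8, 10 and 7. ARHGAP5 and GDI2 were the only 2 members tested, with log2 fold changes of 0.68 (SE 0.37) and 0.21 (SE 0.72), and both overlapped.

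Lists of the ubiquitin system overlapped between the groups. HECT-domain ligases (18 of 27 genes with reads) held 9.82 ± 2.37 reads per 1000 in sh3-1 and 12.2 ± 3.45 in shCtr, with a higher share in 6 and a lower share in 12. RING and cullin ligases (32 of 42) held 21.2 ± 3.13 and 23.2 ± 1.02, with 17 higher and 15 lower, and their most read members are RNF13, MIB1, FBXW7 and BIRC6. FBXW7, a substrate receptor of SCF ligases, had 19, 15 and 10 reads in sh3-1 against 9, 32 and 10 in shCtr. Deubiquitinases (26 of 33) held 8.84 ± 2.78 and 8.19 ± 1.09, with 12 higher and 14 lower, led by USP3 with 3, 4 and 9 against 9, 8 and 10.

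RNA-related lists overlapped too. Genes of m6A writing, erasing and reading (15 of 25 with reads) held 3.93 ± 0.379 per 1000 in sh3-1 and 3.70 ± 1.45 in shCtr, with 8 higher and 7 lower. METTL3, the catalytic m6A writer, had 2, 1 and 5 reads in sh3-1 against 8, 1 and 0 in shCtr, and the reader YTHDF2 had 0, 1 and 5 against 5, 3 and 3. HNRNPC, an RNA-binding protein whose sites m6A can expose, had 8, 3 and 0 against 2, 3 and 0. Genes of circRNA biogenesis and turnover (11 of 26) held 2.54 ± 1.40 and 3.96 ± 0.619, with 5 higher and 6 lower. Helicases, splicing and translation factors (50 of 80) held 29.2 ± 3.32 and 27.2 ± 1.66, with 28 higher and 22 lower. RARS, their leading member, had 45, 35 and 50 against 37, 52 and 20 over 9 circles.

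Lists of nuclear and signalling genes overlapped as well. Chromatin regulators (56 of 76) held 32.9 ± 3.77 reads per 1000 in sh3-1 and 32.7 ± 5.99 in shCtr, nuclear pore and transport genes (32 of 40) 19.8 ± 3.07 and 21.4 ± 4.29, and the 60 hosts named ZNF 16.2 ± 1.27 and 19.8 ± 4.81. MGA, a MAX-binding repressor, was the most read chromatin host, with 33, 19 and 19 in sh3-1 against 17, 22 and 10 in shCtr. Receptor kinase, PI3K and MAPK genes (37 of 61) held 16.2 ± 2.60 and 19.8 ± 3.34, with 13 higher and 24 lower, and PTK2, focal adhesion kinase, had 14, 10 and 31 against 8, 18 and 21. TGF-beta and SMAD genes (15 of 36) held 5.19 ± 1.37 and 5.02 ± 1.68, where SKIL, a SMAD corepressor, had 7, 10 and 2 against 0, 0 and 5, and the receptor ACVR2A 0, 0 and 2 against 1, 9 and 3. Cell cycle, centrosome and mitosis genes (42 of 63) held 18.9 ± 2.98 and 20.5 ± 1.56, with 16 higher and 26 lower, although CEP192 is a member. Matrix and adhesion genes (21 of 59) held 17.3 ± 2.26 and 15.2 ± 3.10. Hosts often described in circRNA work (31 of 40) held 76.5, 72.0 and 98.2 in sh3-1 against 78.7, 80.2 and 72.7 in shCtr, and of the sh3-1 libraries only C was above all 3 shCtr libraries. Without the 409 circles, which raises the shares of other circles in sh3-1 A and B, the values of sh3-1 were 84.8, 88.0 and 98.2. The groups then did not overlap.

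By chromosome, 0 of 25 (0%) passed a false discovery rate of 0.05 by edgeR's quasi-likelihood test, with 3 at an unadjusted p under 0.05 by edgeR and 3 by DESeq2, which called 0. Log2 fold changes were above 0 for 9 and below 0 for 16. Every sh3-1 library was above every shCtr library for 2 (8%) and below for 0. Chromosome 22 held 17.9, 18.5 and 17.6 reads per 1000 in sh3-1 A, B and C, against 13.8, 13.5 and 8.77 in shCtr (log2 fold change 0.59, SE 0.23; edgeR adjusted p = 0.294). The values of sh3-1 lie close together and shCtr C is the lowest. Without shCtr A the log2 fold change was 0.70 and chromosome 22 passed (adjusted p = 0.0107), and without the circle with the most reads on each chromosome it was 0.58 and also passed (adjusted p = 0.0272). Without shCtr C the log2 fold change was 0.40 (adjusted p = 0.819). The other alternatives did not call it. Its 92 circles come from 52 hosts, of which 29 had a higher and 23 a lower share in sh3-1. Over all hosts 47.6% had a higher share. MYH9 held 21.2% of the reads of chromosome 22, and ATXN10, given above, lies there as well. EP300, a histone acetyltransferase, had 1, 4 and 9 reads in sh3-1 against 0, 0 and 4 in shCtr at chr22:41521868-41536261.

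Chromosome 6 held 40.8, 39.7 and 42.4 reads per 1000 in sh3-1 against 38, 32.6 and 31.8 in shCtr (log2 fold change 0.26, SE 0.12; edgeR adjusted p = 0.36). Of its 161 hosts 85 had a higher and 76 a lower share, where 47.6% of all hosts had a higher share. CASP8AP2, a nuclear protein of histone gene expression, had 6, 11 and 5 reads in sh3-1 against 3, 5 and 0 in shCtr at chr6:90571845-90581107. A circle of a locus listed as G071718, chr6:77981057-77983024, had 12, 8 and 1 against 1, 1 and 1. In the other direction RREB1, a zinc finger regulator of Ras response, had 1, 4 and 1 against 5, 4 and 13 at chr6:7176888-7189555, and ZNF292 had 0, 2 and 0 against 3, 9 and 6 at chr6:87925621-87928449. TNFRSF21, a death receptor with the most read circle of the chromosome, had 8, 7 and 6 against 4, 1 and 10.

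Junctions on the mitochondrial chromosome M, 31 circles of 7 hosts as the authors name them, had 28, 14 and 59 reads in sh3-1 against 7, 17 and 7 in shCtr. In reads per 1000 these are 5.57, 2.40 and 10.3 against 1.27, 3.06 and 1.20, so the groups overlap (log2 fold change 1.72, SE 0.85; edgeR adjusted p = 0.38). Library sh3-1 C holds 59 of the 101 reads of sh3-1, and without it the log2 fold change was 1.07. All 7 hosts had a higher share in sh3-1, where 47.6% of all hosts did. They are names that divide the reads of 1 chromosome, and are not 7 separate results. The junction with the most reads, chrM:1680-7802, had 0, 4 and 12 against 0, 0 and 1, and 2 others with 7 and 8 reads were in 1 sh3-1 library each. Mitochondrial genes have no introns, and whether these reads mark circles was not tested. Leaving chromosome M out, the sense overlapping share differed by -2.31 percentage points between sh3-1 and shCtr and the share under 1 kb by 0.918 (both exact p = 0.1).

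**Figure D5:**
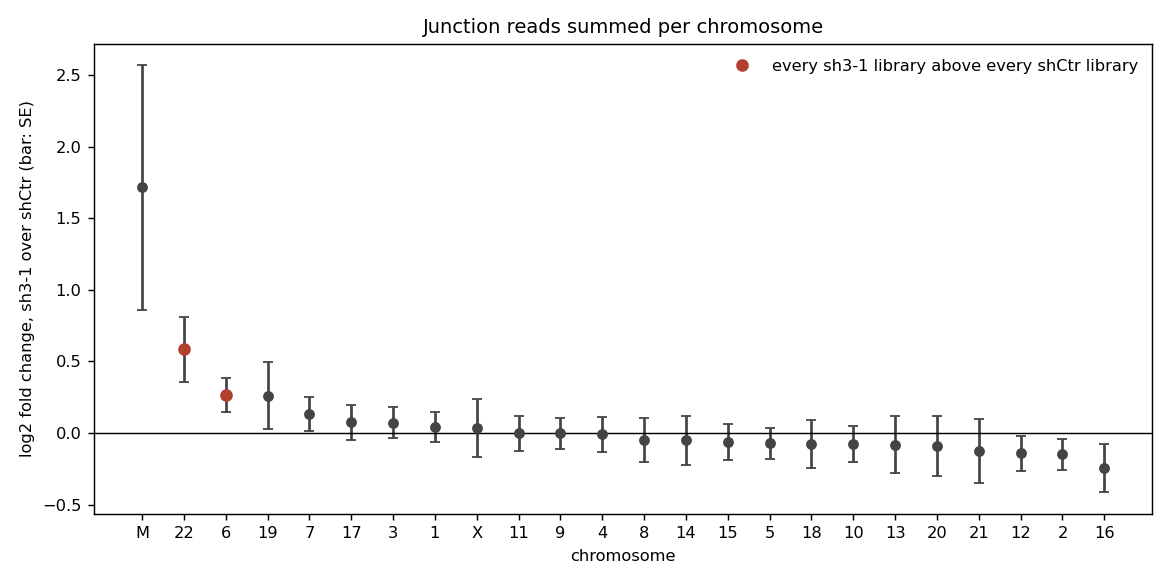
Log2 fold change of sh3-1 over shCtr (bar: SE) of junction reads summed per chromosome, highest first, with chromosomes whose libraries do not overlap in red. Chromosome M lies at 1.72 with the widest error and chromosomes 22 and 6 at 0.59 and 0.26, and the Y chromosome, with 1 circle, is not drawn.

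Circles of the targeted gene were too rare to check the knockdown. IGF2BP3 has 5 listed circles, with 5, 1 and 0 reads in sh3-1 against 6, 2 and 0 in shCtr. All 5 reads of sh3-1 A are from chr7:23385559-23391205, which had 0 in the other 5 libraries, and the 6 reads of shCtr A are 2 each from 3 other circles. Linear IGF2BP3 RNA was not analysed here. SMAD2, the TGF-beta signal transducer in the series title, has 8 circles, with 15, 6 and 17 reads in sh3-1 against 8, 23 and 16 in shCtr (log2 fold change -0.27, SE 0.51; edgeR adjusted p = 0.948). Its main circle, chr18:45391430-45423180 (hsa_circ_0000847), had 15, 6 and 10 against 4, 15 and 14, and overlapped. A shorter circle with the same end, chr18:45394694-45423180, had 0 reads in sh3-1 against 0, 3 and 1 in shCtr.

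In the authors' deposited table, 72 circles pass a p of 0.05 and 2-fold, 27 higher (0.385% of 7021) and 45 lower (0.641%) in sh3-1, and 0 have an adjusted p under 0.05 (the authors' smallest is 0.512). Their log2 fold changes in that deposited table run between 4.06 and 5.44 for the 27 and between -5.11 and -2.04 for the 45. Of the 72, 64 have 0 reads in 1 group, and none passed the default read filter of the count test here. The directions differ in how the reads are spread. Of the 27, 7 had reads in all 3 sh3-1 libraries and 14 in 1 library only, while of the 45, 26 had reads in all 3 shCtr libraries and 1 in 1 library only.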

How the data were processed

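Back-splice junction reads of circRNAs were compared in 6 libraries of FaDu cells, 3 of sh3-1 and 3 of shCtr. The labels' protocols describe rRNA depletion and strand-specific libraries, sequenced as 150 bp pairs. The submitters' processing notes name hg19, STAR 2.5.1b, cutadapt 1.9.3 and edgeR 3.16.5, with no role given. For the circRNA caller and its read minimum, nothing is given in the sources used here. Per the file headers, the deposited values are whole counts of junction reads per circRNA and library, not normalized, and the authors' log2 fold change, p-value and FDR. The authors' predicted length, class, host and coordinates are used as deposited, with starts counted from 1. A further 24 log2 CPM columns were not used. Sites of m6A and their FDR come from the authors' deposited sheets of sh3-2 and shCtr.

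Counts were scaled to all junction reads of a library. Circles, hosts (summed circles) and chromosomes were tested with edgeR 4.0.16 (robust quasi-likelihood fit, filterByExpr for circles and hosts, no filter for chromosomes, no TMM factors, two-sided) with Benjamini-Hochberg adjustment and a threshold of 0.05, in R 4.3.3. Exact permutation tests, two-sided, were run on the shares of reads (Python 3.11.15, numpy 2.4.6, pandas 2.3.3, scipy 1.17.1). DESeq2 1.42.0, TMM factors, other filters and library sizes, all 9 circRNA libraries, a replicate block and leaving out each library were alternatives. Named circles are the 6 with the smallest p in each direction, the 8 with the most reads and the 6 with the most reads found in 1 group only. Named hosts are the 8 with the smallest p in each direction (1 of them is not reported here), the 5 with the most circles (with ties) and the 4 with the most reads of each list. Others were chosen after their values were seen, by read number or shared position. Members and lists were chosen with earlier results of these data known. PCR copies were not told apart.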

Additional observations from a re-analysis of the deposited data

How the results depend on the processing

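No circle or host passed the threshold under any alternative. The smallest edgeR adjusted p was 0.0867 for hosts (at least 10 reads) and 0.0904 for circles (without shCtr B). Of 709 alternatives over 69 results, 675 kept direction and side. Chromosome calls went to 1 (chromosome 22) without each chromosome's top circle (0.58) and to 0 to 1 when a library was left out. Correlations of circle deviations between libraries of the same letter had mixed signs, at -0.175, -0.096 and 0.206 for A, B and C. Between other letters the highest were 0.273 (sh3-1 A with shCtr B) and 0.266 (sh3-1 B with shCtr A), and the lowest was -0.163 (sh3-1 B with shCtr C). For hosts, sh3-1 A with shCtr B gave 0.245 and sh3-1 B with shCtr A gave 0.270. A pairing across letters was not tested. A batch across groups was not tested. With a block for the same letters 0 circles, 0 hosts and 0 chromosomes passed. The direction turned for the following, in percentage points of sh3-1 minus shCtr unless said. With sh3-1 A and B summed they were -0.0176 (intergenic), -0.327 (1 to 5 kb) and 0.401 (5 to 20 kb). Circles detected then differed by 258.2 as counted and 75.3 at equal reads, numbers that summing 2 libraries raises by construction. By circles detected they were -0.334 (exonic) and -0.2001 (circBase). With circles of at least 3 reads they were -0.871 (exonic), -0.647 (1 to 5 kb), 0.637 (5 to 20 kb) and -2.67 (circBase), and 65.7 bases for the median span. Without circles found in sh3-1 A and B only, 5 to 20 kb was 0.357. Leaving out each library gave -0.482 to 1.26 (exonic), -0.0662 to 0.0732 (intergenic), -0.855 to 0.961 (1 to 5 kb), -1.19 to 0.619 (5 to 20 kb), -0.813 to 0.191 (20 to 50 kb), -0.975 to 0.559 (circBase), -0.303 to 0.735 (top 10 circles) and -550.2 to 100.3 bases (median span). For often-described hosts it gave -2.95 to 10.2 reads per 1000, the lowest without sh3-1 C. The cause was not tested. Alternatives without chromosome M, and on the 2 lists and the class and span pairs, were chosen after seeing the data. Under edgeR's default read filter 33 of 7021 circles and 82 of 3354 hosts were tested. A looser filter of at least 10 reads tested 509 circles and 895 hosts, and 0 passed. Under the default filter the median SE was 0.56 for circles and 0.53 for hosts on the log2 scale. It holds counting error and spread between libraries together.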
